A study of Mus musculus with 27 samples.

Results

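The 34 genes described here encode the enzymes of cholesterol and fatty acid synthesis and the proteins that control them, as expressed by CD11b+ cells of the mouse brain. They were chosen by name, from the textbook pathway, and not ranked by their values. Earlier results of these data were known when the choice was made. A gene was kept where it had 10 or more counts in 2 or more libraries of a table. All 34 met this in both experiments, among 14596 genes that met it in the minocycline experiment and 16804 in the enrichment experiment. All 34 were also among the 14579 and 15921 genes that were tested.

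CD11b+ cells were sorted from prefrontal cortex (PFC) and from hippocampus (HC) of mice whose strain the labels spell C57BJ6, with no genotype named, and their polyA RNA was sequenced. CD11b is a surface integrin of microglia, the resident immune cells of the brain, and of other myeloid cells, so the sort does not separate microglia from macrophages or neutrophils. In the minocycline experiment NAIVE mice (2 libraries in PFC, 2 in HC) were untreated controls, CUMS mice (2 and 3) went through chronic unpredictable mild stress, a rodent model of depression built from varied small stressors, and CUMS_M mice (3 and 3) had the same stress with minocycline, a tetracycline antibiotic. In the enrichment experiment all mice had the stress protocol, either with vehicle (VEH, 3 and 3) or with environmental enrichment, housing with added objects and space (EE, 3 and 3), and no unstressed group is part of it. No vehicle is named for CUMS in the minocycline experiment, and neither the age and sex of the mice nor the number of mice per library is given in the labels used here. Nothing says that the libraries of a group came from separate animals, so every p-value measures only the spread between these libraries.

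Cells make cholesterol from acetyl-CoA through the mevalonate pathway, which runs from the HMG-CoA synthase Hmgcs1 to farnesyl diphosphate, then through squalene (Fdft1, Sqle) and a series of sterol intermediates. Fatty acids are built from the same acetyl-CoA by Acly, Acaca and Fasn, then desaturated and lengthened by the Scd, Fads and Elovl enzymes. SREBP transcription factors, encoded by Srebf1 and Srebf2, switch on both arms when membrane sterol is low: Scap carries them out of the endoplasmic reticulum, and Insig1 holds them back. In the brain, astrocytes and oligodendrocytes are known as the main makers of sterols and lipids, and microglia are known to take up lipid from debris such as myelin.

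The labelled cell type was checked against marker genes. The mean log2 CPM (CPM is a count scaled to the size of its library) of 9 microglial markers, Itgam for CD11b among them, lay between 11.11 and 11.59 in all 27 libraries. Totals ran from 7.87 to 15.3 M counts per library in the minocycline experiment, lowest in PFC NAIVE, and from 19.5 to 23.9 M in the enrichment experiment. Markers of other cells were lower but not even. Choroid plexus, a tissue that borders the hippocampus, gave a mean log2 CPM of 5 markers between 4.01 and 6.03 in every HC library of the minocycline experiment and between -1.97 and -1.56 in its PFC libraries, except PFC CUMS_M 3 at 4.29. In the enrichment experiment 6 libraries lay on the side of the other region: PFC VEH 2 (4), PFC VEH 3 (4.11), PFC EE 2 (4.85), PFC EE 3 (2.66), HC VEH 1 (-2.36) and HC VEH 2 (-1.79). Results of that experiment are given with all libraries. Fitted values without these 6 libraries are given only for members that passed in that fit and for Acsl3 in PFC.

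Promoter stretches of 6 members are shown first, as examples of the SREBP-type motifs and of members described below. RefSeq gave 33 promoter windows for 27 of the 34 members on GRCm38.p6, each from 250 bases before to 50 bases after a transcript start. The sterol response element core TCACCCCA, read on both strands, was found in 2 of the 33 windows (6.06%), those of Hmgcs1 and Srebf2, against 1.56% of 32851 windows of all genes. The E-box CACGTG was found in 7 windows (21.2% against 7.15%) and the CCAAT box, CCAAT or ATTGG, the motif of the SREBP partner NF-Y, in 23 windows (69.7% against 37.4%). These matches are letters in a window, not measured binding. In the stretches below, read 5′ to 3′ on the strand of the gene, capitals mark these motifs. Hmgcs1 and Srebf2 carry the sterol core, Insig1 an E-box, Fasn overlapping CCAAT boxes, and Tm7sf2 and Acsl3 are members that rose in stressed PFC.
Hmgcs1, chr13:119690101-119690325, plus strand: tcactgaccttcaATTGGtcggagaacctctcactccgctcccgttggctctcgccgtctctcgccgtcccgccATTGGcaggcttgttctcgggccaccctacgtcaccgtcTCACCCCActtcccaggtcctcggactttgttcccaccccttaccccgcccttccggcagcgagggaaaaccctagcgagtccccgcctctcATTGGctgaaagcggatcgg
Srebf2, chr15:82147092-82147153, plus strand: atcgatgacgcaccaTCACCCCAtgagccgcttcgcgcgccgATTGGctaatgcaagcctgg
Fasn, chr11:120824587-120824652, minus strand: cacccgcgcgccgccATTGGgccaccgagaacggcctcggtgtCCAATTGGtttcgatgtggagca
Tm7sf2, chr19:6067878-6067912, minus strand: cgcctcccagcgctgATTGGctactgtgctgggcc
Acsl3, chr1:78657795-78657824, plus strand: gccaccgcccgcgggCCAATgggcggcggt
Insig1, chr5:28071181-28071331, plus strand: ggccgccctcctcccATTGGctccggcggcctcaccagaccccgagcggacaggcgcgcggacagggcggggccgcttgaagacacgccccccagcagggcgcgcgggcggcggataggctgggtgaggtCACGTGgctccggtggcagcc

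Levels were compared between genes as CPM per kb of exon, the median over the libraries of an experiment. The same 8 genes led in the same order in both experiments. Acly, which supplies cytosolic acetyl-CoA, had 50.4 CPM per kb (46.3 to 55.5) in the minocycline experiment and 51 (40.7 to 58.6) in the enrichment experiment. Scd2, the stearoyl-CoA desaturase typical of brain, followed with 50 and 40.1, and Fads1, the delta-5 desaturase of polyunsaturated fatty acids, with 34.7 and 32. Ebp, a sterol isomerase, and the control genes Scap, Srebf1 and Srebf2 were also in this leading set, with Elovl5 between the last 2 of them. At these levels the neighbours Acly and Scd2 in the minocycline experiment, and Scap and Srebf1 in the enrichment experiment (12.8 each), differed by less than their range over libraries.

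The lowest levels were those of Idi1 and Elovl6, an isomerase of the mevalonate arm and an elongase of saturated fatty acids. Idi1 had a median of 0.298 CPM per kb in the minocycline experiment and 0.235 in the enrichment experiment, and Elovl6 0.269 and 0.281. Fdps, Acss2, Acaca and Hsd17b7 also lay below 1 CPM per kb in both. In PFC NAIVE 1, the library with the smallest total, Idi1 and Elovl6 had 0 counts. The members also differed in how even they were across libraries. Acly varied 1.2-fold and Fads1 1.28-fold between the lowest and highest library of the minocycline experiment, against 12.2-fold for Fads2, the delta-6 desaturase, 8.53-fold for Acss2 and 33.1-fold for Sqle, the squalene epoxidase, whose span rests on PFC NAIVE 1 at 0.261 CPM. In the enrichment experiment the widest spans were those of Scd1 (5.81-fold), Elovl6 (5.76-fold) and Fads2 (5.53-fold).

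**Figure D1:**
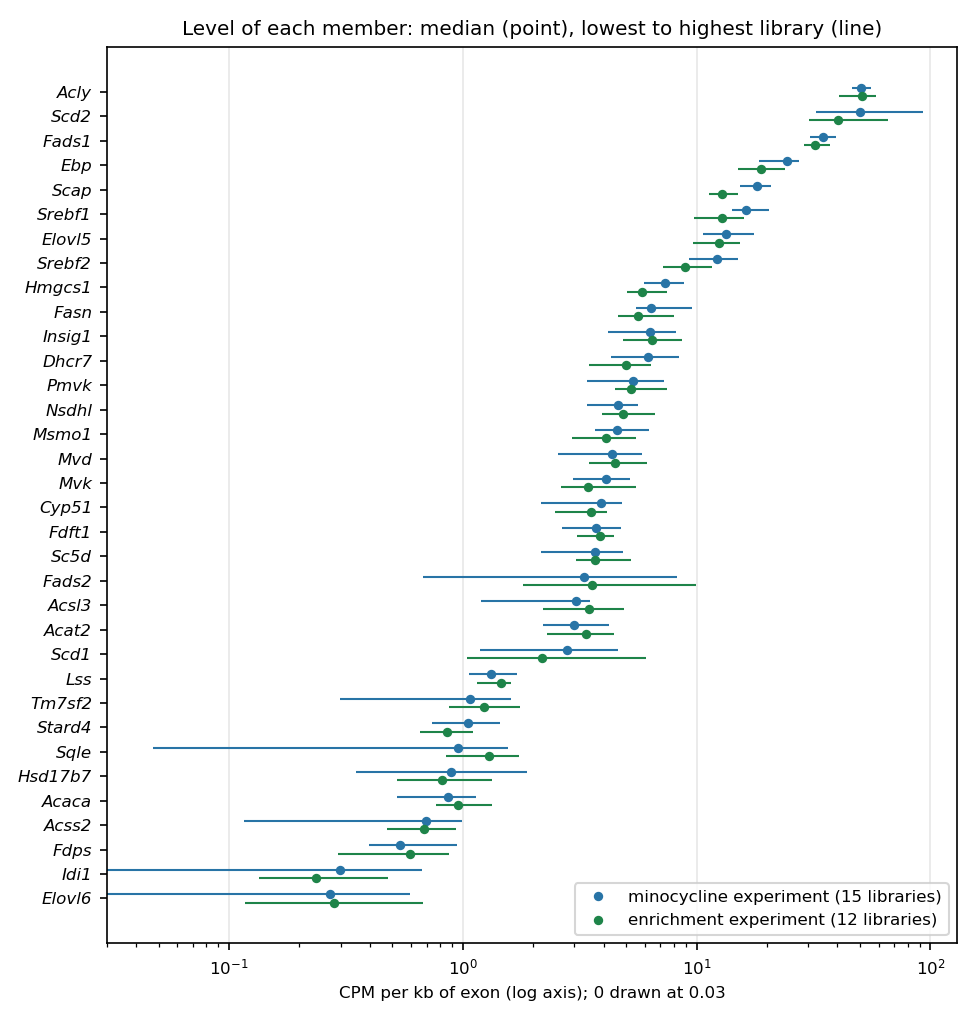
Level of each member in CPM per kb of exon on a log axis, with points for the median over libraries and lines from the lowest to the highest library, for the minocycline (15 libraries) and enrichment (12 libraries) experiments. Acly, Scd2 and Fads1 lead in both. Fads2, Acss2 and Sqle have long lines in the minocycline experiment, and Idi1 and Elovl6 reach 0 there.

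In PFC, 3 of the 34 members rose with stress: Tm7sf2, a sterol C14 reductase, Acsl3, which activates fatty acids to acyl-CoA, and Scd1, the stearoyl-CoA desaturase that responds to SREBP and dietary lipid. Tm7sf2 had 1.31 and 1.36 CPM in the PFC NAIVE libraries and 6.47 and 5.84 in PFC CUMS. PFC NAIVE stood below every other library of the experiment, since PFC CUMS_M had 5.13, 4.29 and 7.06 CPM and the HC libraries 4.32 to 6.81. The means were 1.33 ± 0.0346 and 6.16 ± 0.443 CPM (SD, n = 2 each), a log2 fold change of 2.20 ± 0.43 (SE; edgeR quasi-likelihood test, adjusted p = 0.0154). Acsl3 went from 5.23 and 5.55 CPM in NAIVE to 15.1 and 15.2 in CUMS, 1.49 ± 0.29 on the log2 scale (adjusted p = 0.0154). Its NAIVE libraries were also the lowest of the experiment. Scd1 went from 6.14 and 5.79 to 21.3 and 16.0 CPM, 1.65 ± 0.36 (adjusted p = 0.0393). No library of one group reached the other group for any of the 3. The share of all genes without such overlap was not counted, here or in the comparisons below.

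These 3 members compare with 0.816% of all tested genes that were called in this comparison, and 0.741% called higher. At an unadjusted p under 0.05 there were 8 members, 7 of them higher in CUMS, against 13.7% of all genes. Fads2 was among them with 4.05 and 2.22 CPM in NAIVE and 10.8 and 10.9 in CUMS (1.79 ± 0.51, adjusted p = 0.13), as were Sqle with 0.261 and 2.71 against 5.32 and 5.75, and Acss2, the acetyl-CoA synthetase, with 1.18 and 5.55 against 8.40 and 7.51. For Sqle and Acss2 the low mean of NAIVE came mainly from PFC NAIVE 1. Lss, the lanosterol synthase, was lower in CUMS, 12.5 and 13 against 18.4 and 16.6 CPM, and did not pass (-0.46 ± 0.21, adjusted p = 0.346). The median of all members was 0.14 on the log2 scale, with 24 of 34 above 0, against 0.02 for all genes.

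By role, 1 of 11 genes from squalene to cholesterol passed (Tm7sf2, list median 0.10), 1 of 6 desaturases and elongases (Scd1, 0.31) and 1 of the 2 genes of activation and transport (Acsl3). None of the 7 genes of the mevalonate arm passed (0 called and 0 at an unadjusted p under 0.05, -0.19 to 1.87), nor any of the 4 control genes. Insig1 differed by 0.02 ± 0.22, Srebf1 by 0.04 ± 0.11 and Srebf2 by -0.11 ± 0.14. The sterol-responsive genes Hmgcs1 (0.15 ± 0.16) and Fasn (0.20) had little difference between the groups as well.

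Markers of other cells moved in the same comparison. Of 10 astrocyte markers 7 were called higher in PFC CUMS and none was at 0 in any library: their summed level ran from 261 to 297 CPM in NAIVE and from 884 to 988 in CUMS. Of 8 endothelial and mural markers 3 were called higher, with sums of 147 to 186 and 243 to 289 CPM, while oligodendrocyte sums overlapped (364 to 875 and 687 to 725). All 6 neutrophil markers were below 0, none called, with sums of 2760 to 3950 CPM in NAIVE and 1470 to 1920 in CUMS. Of 6 neuron markers 1 was called higher. Of 9 microglial markers 4 were lower at an unadjusted p under 0.05 by edgeR, and none was called. All 5 markers of border macrophages, which also carry CD11b, were above 0, none called. Their sums were 369 to 420 CPM in NAIVE and 537 to 659 in CUMS. The edgeR fit was repeated with the mean level of astrocyte, oligodendrocyte, vessel and neuron markers as a covariate. Tm7sf2 was then 2.22 (adjusted p = 0.205) and Acsl3 1.15 (adjusted p = 0.31). Scd1 and Fads2 were 0.43 and 0.51 (adjusted p = 0.737 and 0.784). The astrocyte part of this covariate did not overlap between the groups (mean log2 CPM 2.89 to 3.09 in NAIVE and 5.29 to 5.33 in CUMS). In these 4 libraries it cannot be told apart from stress. Border macrophage and neutrophil markers are not in the covariate, and their part was not tested. The fit with the covariate called 1 member among 41 genes in all, Scd2, as lower in CUMS (-0.99, adjusted p = 0.0464), where it was 0.24 ± 0.31 without the covariate. In a bulk sample, fewer cells of a type and less RNA per cell cannot be told apart. In the GENCODE M21 annotation of GRCm38, Tm7sf2 lies at chr19:6062821-6068373 on the minus strand, Acsl3 at chr1:78657825-78707743 on the plus strand and Scd1 at chr19:44394455-44407879 on the minus strand, all protein-coding. There 12.1% of the exon bases of Tm7sf2 are shared with Vps51 on the same strand, and 5.6% of those of Acsl3 with Utp14b, and the part of such shared reads was not tested. The calls rested on 4 libraries. No member was called when either PFC CUMS library or PFC NAIVE 1 was left out, or in a fit of the 4 libraries alone, and without PFC NAIVE 2, which leaves 1 NAIVE library, there were 4 (Tm7sf2, Acsl3, Sqle and Acss2) among 540 genes in all, against 119 with all libraries.

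**Figure D2:**
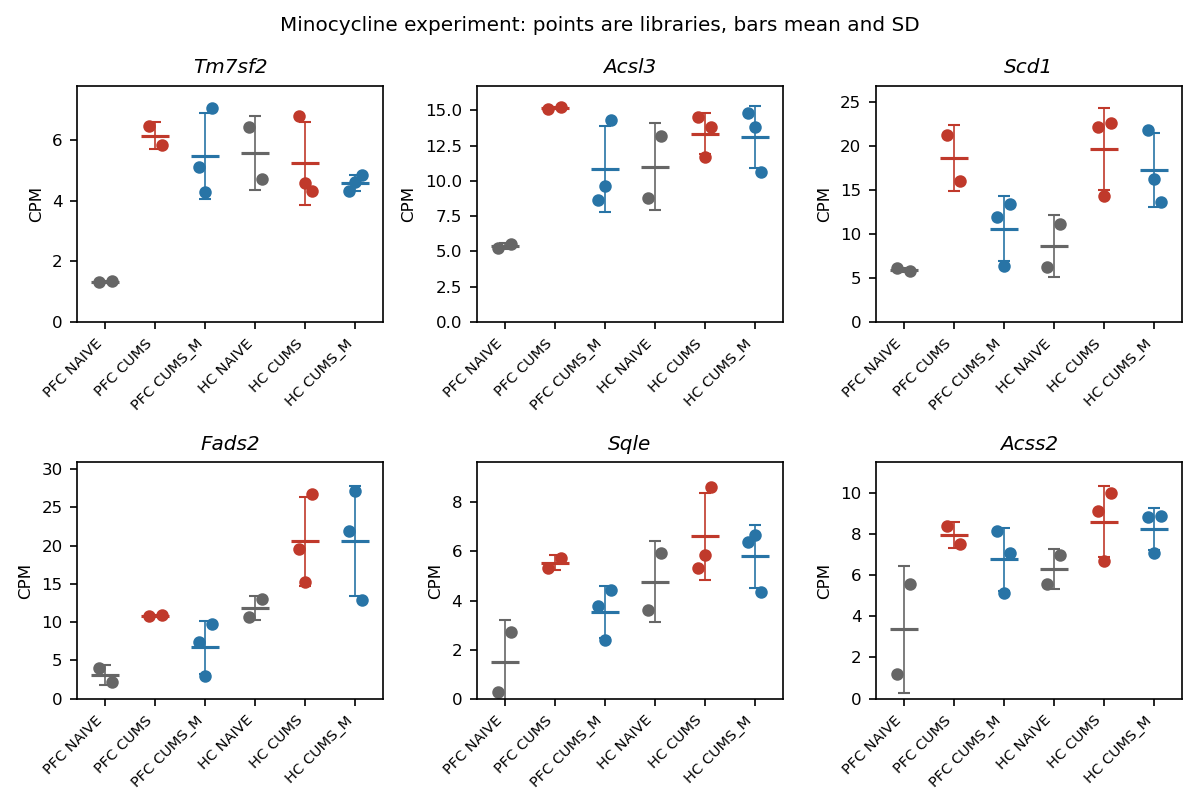
CPM of 6 members in the minocycline experiment, with 1 point per library, a bar for the group mean and whiskers of 1 SD (2 or 3 libraries per group, cut at 0). PFC NAIVE is lowest for Tm7sf2 and Acsl3, and Fads2 is higher in HC CUMS and HC CUMS_M than in PFC.

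In HC the same stress gave no called member, against 0% of all genes. At an unadjusted p under 0.05 there were 2 members (2.87% of all genes), and DESeq2 called 0 members and 1 gene in all. Scd1 had 6.22 and 11.2 CPM in HC NAIVE and 22.2, 14.3 and 22.6 in HC CUMS, 1.18 ± 0.32 on the log2 scale (adjusted p = 1), with no overlap of the groups. Acat2, which condenses acetyl-CoA, had 5.59 and 6.45 against 8.81, 10.7 and 7.25 CPM (0.57 ± 0.27). Fads2, the next by p, had 10.7 and 13 against 19.6, 15.3 and 26.8. Desaturases and elongases had a median of 0.60, with 5 of 6 above 0, and all members a median of 0.02. Of 10 astrocyte markers 10 were above 0 here too, with sums of 370 to 466 CPM in NAIVE and 608 to 715 in CUMS. So were all 8 oligodendrocyte markers, none called, with sums of 491 to 500 and 674 to 836 CPM. With the marker covariate Scd1 was 0.62. The astrocyte part of that covariate did not overlap between the groups (mean log2 CPM 4.05 to 4.36 and 4.95 to 5.21). It cannot be told apart from stress here either. All 6 neutrophil markers were below 0, none called, with sums of 597 to 1310 CPM in NAIVE and 132 to 371 in CUMS.

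Tm7sf2 did not share the PFC pattern in HC, with 6.45 and 4.73 CPM in NAIVE and 6.81, 4.59 and 4.32 in CUMS. Its difference between the regions, tested directly, was -2.30 ± 0.54 (adjusted p = 0.302), and that of Acsl3 -1.21 ± 0.38 (adjusted p = 0.552). No member passed this test by edgeR, against 0% of all genes, with 2 members at an unadjusted p under 0.05 (6.27% of all genes). DESeq2 called 1 among 27 genes in all, Tm7sf2 at an adjusted p of 0.0495.

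Minocycline given with the stress was compared with stress alone. In PFC no member was called by edgeR, against 0.0206% of all genes, or by DESeq2, which called 85 genes in all, and 4 members, all lower with minocycline, had an unadjusted p under 0.05 (5.54% of all genes). Cyp51, the lanosterol demethylase, had 17.4 and 19.3 CPM in PFC CUMS and 13.4, 9.53 and 12.5 in PFC CUMS_M (-0.63 ± 0.20, adjusted p = 0.44). Scd1 had 21.3 and 16.0 against 12, 6.43 and 13.4 CPM (-0.81 ± 0.31), and Scd2 had 329 and 321 against 230, 176 and 187 (-0.72 ± 0.28). Sc5d, which puts in a double bond late in sterol synthesis, was the other (-0.55 ± 0.24). The groups did not overlap for these 4, which were picked by p, and the share of all genes without overlap was not counted. Members had a median of -0.16, with 23 of 34 below 0, against 0.02 for all genes. All 10 astrocyte markers were lower as well, summing to 347 to 574 CPM in CUMS_M. So were all 8 oligodendrocyte markers (sums of 687 to 725 CPM in CUMS and 259 to 394 in CUMS_M). All 8 endothelial and mural markers were lower too, 1 called (243 to 289 and 156 to 165). Of 9 microglial markers 7 were above 0, as were 5 of 6 neutrophil and 5 of 5 choroid plexus markers, none called. With the marker covariate, whose astrocyte part did not overlap between the groups, all 4 members took the opposite sign (0.13, 0.36, 0.53 and 0.10). A fit of these 5 libraries alone called 1 member, Scd2 (-0.72, adjusted p = 0.0158), among 68 genes in all, against 3 in the fit of all groups.

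In HC minocycline gave 0 called members by edgeR, against 0.00686% of all genes, 0 by DESeq2, which called 36 genes in all, and 2 at an unadjusted p under 0.05 (4.01% of all genes). Srebf1 had 91.2, 92.8 and 94.4 CPM in HC CUMS and 115, 98.6 and 107 in HC CUMS_M (0.20 ± 0.09, adjusted p = 1). Acly had 253, 248 and 258 against 289, 277 and 287 CPM (0.17 ± 0.08). These are shifts of 1.15-fold and 1.12-fold in genes with little spread between libraries. Dhcr7, the reductase of the last step to cholesterol, was the next by p (0.26). Cell markers moved here too, none called. All 9 microglial markers were above 0 (0.03 to 0.23), 2 at an unadjusted p under 0.05 by edgeR. Of 8 endothelial and mural markers 7 were below 0, 3 at that threshold. All 6 neutrophil markers were above 0 (median 2.01), 3 at that threshold. Astrocyte markers had a median of -0.05 and oligodendrocyte markers -0.2. Their part in the shifts of the members was not tested. The difference between regions of the minocycline contrast had 0 called members by edgeR (0.00686% of all genes), 0 by DESeq2, which called 2 genes in all, and 3 at an unadjusted p under 0.05 (3.47%): Sc5d (0.86), Cyp51 (0.71) and Fasn (0.44), each at an adjusted p of 0.999.

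Against NAIVE, which is shared with the comparisons above, CUMS_M gave no called member in PFC by edgeR (0.0892% of all genes) and 1 by DESeq2, which called 143 genes in all. Tm7sf2 was nearest with 2.04 ± 0.41 (adjusted p = 0.0542), so its level in CUMS_M lay near that of CUMS. At an unadjusted p under 0.05 there were 9 members, 6 higher and 3 lower, against 14% of all genes. Acsl3 (1.01 ± 0.28) was higher and Hsd17b7, a 3-ketosteroid reductase, was lower, with 7.19 and 5.18 CPM in NAIVE and 3.10, 1.79 and 3.31 in CUMS_M (-1.16 ± 0.40, adjusted p = 0.23). All 10 astrocyte markers were above 0, 1 of them called, and all 8 oligodendrocyte markers were below 0, none called. With the marker covariate edgeR called 1 member, Tm7sf2 (2.04, adjusted p = 0.0306), among 61 genes in all. Without PFC NAIVE 2, which leaves 1 NAIVE library, the count of called members became 4 and that of all genes 610, from 13, and without PFC CUMS_M 2 they became 1 and 25. In HC the same comparison called 0 members by edgeR (0% of all genes) and 0 by DESeq2 (1 gene in all), with 1 at an unadjusted p under 0.05 (2.33%), Scd1 with a fold of 2 (SE 0.32 on the log2 scale).

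Enrichment of stressed mice was compared with vehicle. In HC, Fasn, the fatty acid synthase, had 51.9, 53.0 and 50.4 CPM with vehicle and 85.6, 78.4 and 87.7 with enrichment. The gene lies at chr11:120805846-120824547 (GRCm38, minus strand). The groups lay far apart beside their spread, at 51.8 ± 1.29 and 83.9 ± 4.88 CPM (SD, n = 3 each), a difference of 0.70 ± 0.11 (SE) on the log2 scale. Its adjusted p by edgeR was 0.0603, just over the threshold of 0.05. Fads2 had 9.85, 5.94 and 7.75 against 32.8, 14.4 and 23.5 CPM (1.59 ± 0.34, adjusted p = 0.0887), and Scd2 had 216, 165 and 222 against 359, 307 and 294 (0.67 ± 0.16, adjusted p = 0.119). Scd1 had 8.49, 5.10 and 11.1 against 29.6, 13.4 and 24.4 CPM (1.45 ± 0.36, adjusted p = 0.134). All enriched libraries were above all vehicle libraries for these 4, which were picked by p. The share of all genes without overlap was not counted.

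No member was called in HC by edgeR, against 0% of all genes, and DESeq2 called 5 members among 441 genes in all: Fasn, Fads2, Scd2, Scd1 and Srebf2. At an unadjusted p under 0.05 there were 13 of 34 members, all 13 higher with enrichment, against 10.4% of all genes, 6.58% in the higher direction. The median of all members was 0.23, with 28 of 34 above 0, and that of all genes was -0.03. The fatty acid arm led: desaturases and elongases had a median of 0.84 with 6 of 6 above 0, and acetyl-CoA supply and fatty acid synthesis 0.38 with 4 of 4 above 0. The mevalonate arm had a median of 0.13 and the genes from squalene to cholesterol 0.08, with 1 member each at an unadjusted p under 0.05, Hmgcs1 (25.3 ± 1.7 against 32.3 ± 2.15 CPM) and Sqle (5.73 ± 1.34 against 8.43 ± 1.05). Among the control genes, Srebf2 had 60.3, 58.0 and 51.7 CPM with vehicle and 70.8, 70.7 and 83.2 with enrichment (0.40 ± 0.11, adjusted p = 0.165) and Srebf1 0.36 ± 0.12 (adjusted p = 0.228), while Insig1 was 0.05 ± 0.19.

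Other cells' markers were higher in the same enriched HC libraries. All 8 oligodendrocyte markers and 9 of 10 astrocyte markers had an unadjusted p under 0.05, none called, and none was at 0. Oligodendrocyte sums ran from 244 to 310 CPM with vehicle and from 475 to 853 with enrichment, astrocyte sums from 506 to 646 and from 806 to 1160, while microglial sums overlapped. All 5 markers of border macrophages, which also carry CD11b, were higher, 4 at an unadjusted p under 0.05 and none called, with sums of 315 to 409 and 531 to 729 CPM. The choroid plexus level was -2.36, -1.79 and 3.05 with vehicle and 4.17 to 5.72 with enrichment. With the marker covariate Fasn was 0.52, below its size without it, and Srebf2 and Srebf1 were 0.41 each, near theirs. Fads2, Scd1 and Scd2 were 0.71, 0.51 and 0.15, all at adjusted p of 0.912 to 0.935 by edgeR. Choroid plexus and border macrophage markers are not in that covariate, and their part was not tested. Its astrocyte and oligodendrocyte parts did not overlap between the groups, so they cannot be told apart from enrichment here. Without the 6 libraries set apart by choroid plexus level, the fit has 1 library in each of PFC VEH, PFC EE and HC VEH and 3 in HC EE. Its whole estimate of the spread comes from the 3 HC EE libraries, and each lone library is assumed to vary like them. It passed 1012 genes in HC, where no gene was called with all libraries, and the values of the 4 members among them are given as a description: Fasn 0.75, Srebf1 0.64, Srebf2 0.55 and Scd2 0.54. Without HC EE 2, Fasn and Fads2 were called among 41 genes in all.

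In PFC enrichment gave 0 called members by edgeR, against 0% of all genes, 0 by DESeq2, which called 17 genes in all, and 2 at an unadjusted p under 0.05 (4.25% of all genes), both of the fatty acid arm. Fasn had 58.2, 60.9 and 53.4 CPM with vehicle and 71.2, 80.1 and 61.8 with enrichment (0.31 ± 0.11, adjusted p = 0.986). Acaca, the acetyl-CoA carboxylase that commits carbon to fatty acids, had 13.1, 16.7 and 13.9 against 19.1, 22.8 and 15.9 CPM (0.40 ± 0.16), and the groups overlapped. Acsl3 was 0.40 ± 0.22 with all libraries and -0.01 without the 6 libraries, which leaves 1 library per PFC group and no spread measured in PFC. The member that passed in that fit, among 334 genes in all, was the methylsterol oxidase Msmo1 (-0.86). Members had a median of -0.04.

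The enrichment contrast was also compared between the regions. Fads2 differed by 1.96 ± 0.48, Scd2 by 0.71 ± 0.23, Scd1 by 1.43 ± 0.50, Fasn by 0.39 ± 0.15 and Hmgcs1 by 0.39 ± 0.17, all larger in HC, and these 5 had an unadjusted p under 0.05 (4.21% of all genes). None was called by edgeR or DESeq2 (adjusted p = 0.998, 0% of all genes). Without the 6 libraries, with the spread again taken from HC EE alone, Scd2 was 1.01 and was the 1 member among 472 genes that passed.

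**Figure D3:**
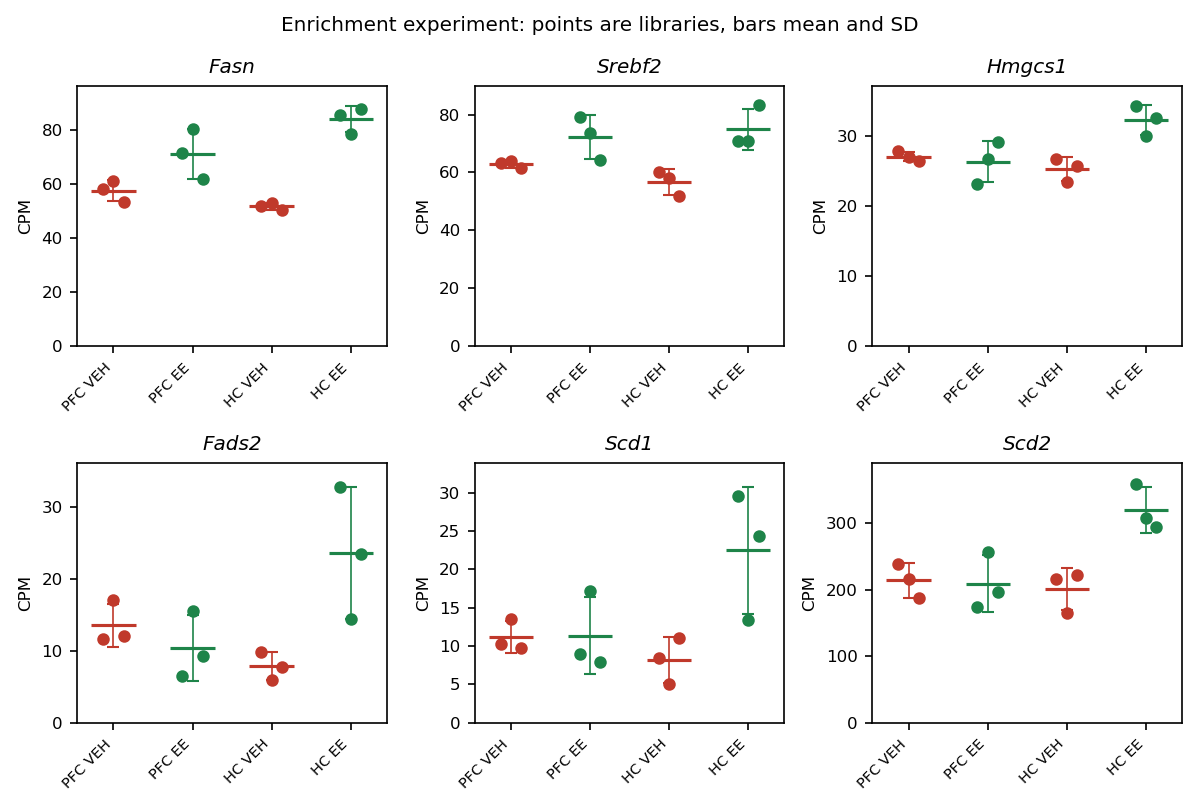
CPM of 6 members in the enrichment experiment, with 1 point per library, a bar for the group mean and whiskers of 1 SD (3 libraries per group). HC EE lies above HC VEH in every panel without overlap, and Fasn in HC goes from 50.4 to 53.0 CPM with vehicle to 78.4 to 87.7 with enrichment. The 6 members shown are among those of small p in HC, and the share of all genes without overlap was not counted.

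Between regions, 2 of 34 members rose in HC over PFC in the minocycline experiment, averaged over NAIVE, CUMS and CUMS_M with equal weight. That share is near the 5.1% of all genes that were called. Fads2 had 4.05 and 2.22 CPM in PFC NAIVE against 10.7 and 13 in HC NAIVE. In CUMS it had 10.8 and 10.9 in PFC against 19.6, 15.3 and 26.8 in HC, and in CUMS_M 7.45, 2.98 and 9.77 against 21.9, 27.1 and 12.9. HC was above PFC in each treatment with no overlap within it, and the log2 fold change was 1.48 ± 0.25 (adjusted p = 0.00367). Srebf1 ran from 80.3 to 87.6 CPM over all PFC libraries and from 91.2 to 115 over all HC libraries, a difference of 1.18-fold (0.24 ± 0.06, adjusted p = 0.017).

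In all, 11 members had an unadjusted p under 0.05 in this comparison, all higher in HC, against 19% of all genes. They included Sqle (0.87), Hsd17b7 (0.53), Tm7sf2 (0.52), Insig1 (0.27) and Srebf2 (0.18). These values are averages over the treatments. The mean of Tm7sf2 was higher in HC only in NAIVE, at 1.33 CPM in PFC and 5.59 in HC. In CUMS it was 6.16 in PFC and 5.24 in HC, and in CUMS_M 5.49 and 4.59. Srebf2 was not higher in HC in NAIVE (90.2 in PFC and 88.3 in HC). Acsl3, also among the 11, was not higher in HC in CUMS (15.2 and 13.4). The median was 0.20, with 30 of 34 members above 0, against 0.02 for all genes. Choroid plexus (5 of 5), endothelial and mural (6 of 8) and astrocyte markers (4 of 10) were called higher in HC too. Other markers went the other way. All 6 neutrophil markers were lower in HC at an unadjusted p under 0.05, none called, and 2 of 6 neuron markers were called lower. With the marker covariate Fads2 was 1.10 (edgeR adjusted p = 0.057) and Srebf1 0.21 (adjusted p = 0.206). Choroid plexus and neutrophil markers are not in that covariate, and their part was not tested. Without PFC CUMS 2 the adjusted p of Srebf1 was 0.067, and without PFC NAIVE 2 the count of members called became 6 and that of all genes 983, from 744.

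In the enrichment experiment no member was called between the regions by edgeR or DESeq2, against 0% of all genes, and 2 had an unadjusted p under 0.05 (2.08% of all genes). Elovl5, the elongase of polyunsaturated fatty acids, and Scd2 were both 0.26 on the log2 scale and overlapped between regions. Fads2 had 11.6, 17 and 12 CPM in PFC VEH, 6.49, 15.5 and 9.32 in PFC EE, 9.85, 5.94 and 7.75 in HC VEH and 32.8, 14.4 and 23.5 in HC EE, so HC did not stand above PFC with vehicle. Without the 6 libraries, with the spread taken from HC EE alone, Scd2 was 0.39 and was the 1 member among 2051 genes that passed.

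Further genes of lipid handling were read from the same fits. Of 17 further SREBP pathway genes 1 was called in stressed PFC: Me1, the malic enzyme that makes NADPH for fatty acid synthesis, with 0 counts in both PFC NAIVE libraries and 1.95 to 2.31 CPM in PFC CUMS (adjusted p = 0.0144). No gene of the lists for LXR and cholesterol efflux (9), for cholesterol storage and handling (10) or for fatty acid oxidation (11) was called there, with 1, 4 and 2 at an unadjusted p under 0.05. Npc1, the lysosomal cholesterol exporter, was 504 to 506 CPM in NAIVE and 380 to 385 in CUMS (-0.40 ± 0.11, adjusted p = 0.114), and Cyp27a1, a sterol hydroxylase, 25.1 to 35.5 and 51.3 to 53.0 (0.78 ± 0.21, adjusted p = 0.0887).

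Between regions in the minocycline experiment 3 of these genes were called. Abca1, the cholesterol efflux pump, fell by 0.24 on the log2 scale in HC against PFC (626 ± 86.2 and 729 ± 41.9 CPM, adjusted p = 0.02). Me1 (3.04 ± 0.57) and Ch25h, the cholesterol 25-hydroxylase (3.31 ± 0.67), rose in HC from levels at or near 0 in PFC NAIVE, with means of 2.48 and 1.99 CPM in HC, so these fitted sizes depend on the low end. In enriched HC none of these lists had a called gene, with 5 genes at an unadjusted p under 0.05. Of them Apoe, the main lipid carrier of the brain, had 957 to 1490 CPM with vehicle and 1740 to 2650 with enrichment (0.90 ± 0.21, adjusted p = 0.112) and Me1 1.18 to 1.67 and 2.06 to 5.67.

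**Figure D4:**
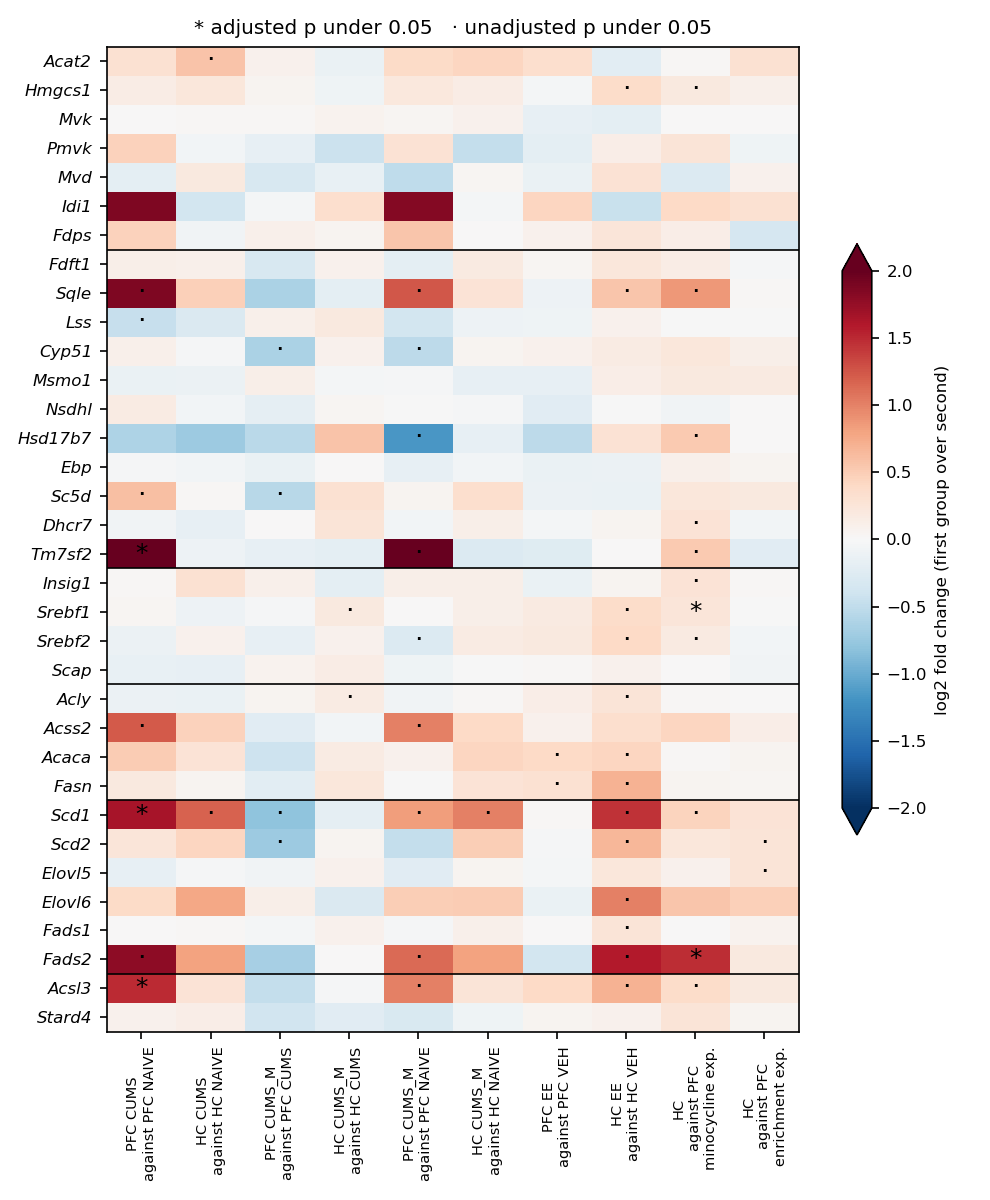
Log2 fold change of the 34 members (rows, grouped by role between the black lines) in the 8 treatment and 2 region comparisons (columns), red for higher in the group named first, with colours capped at 2 and -2. Stars mark the 5 calls at an adjusted p under 0.05, and the HC EE column has 13 dots, all in red cells.

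Fads2, Scd1 and Fasn were also set beside the astrocyte marker level, as a description with no test. PFC NAIVE, with an astrocyte mean log2 CPM of 2.89 to 3.09, had Fads2 at 2.22 and 4.05 CPM, the lowest value of all libraries among them, though PFC CUMS_M 2 lay at 2.98. HC EE, at 5.02 to 5.85, had 14.4 to 32.8 CPM, the highest value among them, though HC CUMS and HC CUMS_M reached 26.8 and 27.1. PFC CUMS had an astrocyte level of 5.29 to 5.33 with Fads2 at 10.8 and 10.9 CPM. Fasn was 63.7 and 69.9 CPM in PFC NAIVE and 50.4 to 53.0 in HC VEH, whose astrocyte level was higher (4.13 to 4.65). PFC NAIVE and HC VEH differ in experiment, region and treatment. The experiments were scaled and fitted apart, so levels across them are not a like comparison. The part of astrocyte RNA in these levels was not tested.

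**Figure D5:**
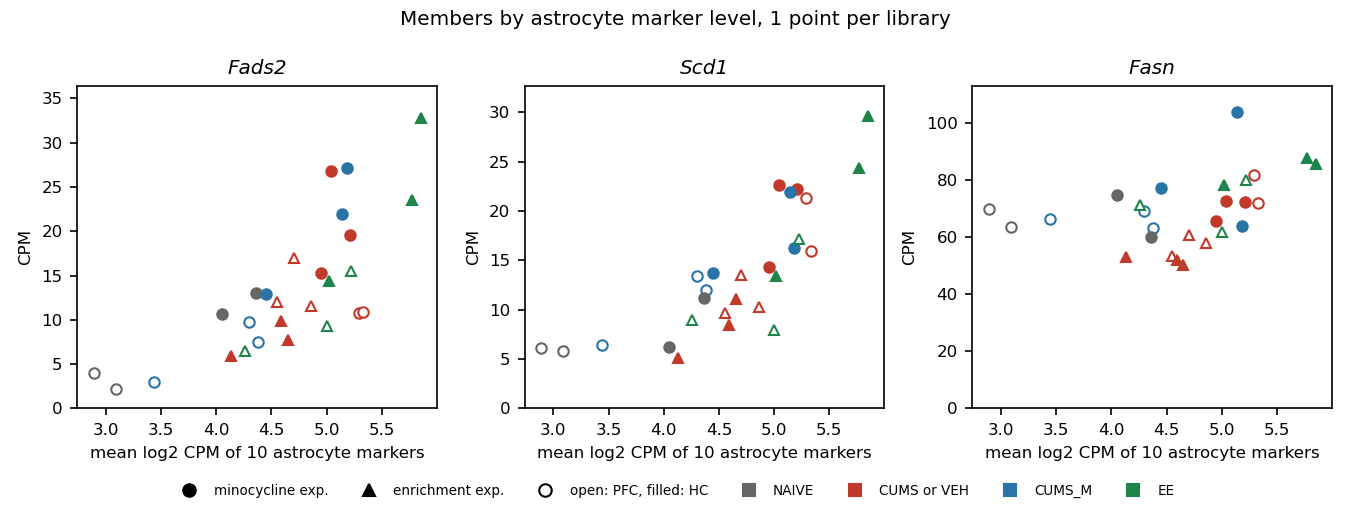
CPM of Fads2, Scd1 and Fasn against the mean log2 CPM of 10 astrocyte markers, with 1 point per library (circles for the minocycline and triangles for the enrichment experiment, open for PFC and filled for HC, coloured by treatment). The lowest Fads2 (2.22 CPM) is in PFC NAIVE at the left and the lowest Scd1 (5.10 CPM) in HC VEH, and the highest of both (32.8 and 29.6 CPM) are in HC EE.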

How the data were processed

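RNA was measured in CD11b+ cells of 2 brain regions, in 15 and 12 libraries of 2 experiments. The authors deposited raw counts per gene, with a table for each experiment. Per the submitters' processing notes, the tools were Trimmomatic 0.36, STAR 2.6.1b, Picard 2.17.1, featureCounts 1.5.3 and DESeq2 1.24.0 with mm10/GRCm38. The annotation release, the strand setting and any removal of duplicates are not given in the sources used here.

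Identifiers were matched to symbols in GENCODE M21 (53326 of 53412 and 55154 of 55421). Genes were filtered with filterByExpr of edgeR (minimum count 10, minimum total 15), scaled by TMM, and tested per table with the edgeR quasi-likelihood test, 1 mean per group and robust estimation. Adjustment followed Benjamini-Hochberg across the whole set of tested genes, and a gene was called at an adjusted p under 0.05. CPM uses the TMM library size, and mean log2 CPM a prior count of 2. The tables were never fitted together. Totals of 7.87 M to 23.9 M counts set the precision, least for members with few counts.

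The members, the role lists and the marker lists were chosen with earlier results of these data known. Any member could be named. Values per library are given for called members, or the 3 of smallest p where fewer were called, and for listed further genes called or of smallest p.

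Alternatives were other size factors, other filters, DESeq2, a replicate block, a covariate of markers, a fit limited to the groups compared, and each library left out. Libraries with equal number deviated together in PFC VEH and EE (r = 0.359, 0.198 and 0.208). In both groups numbers 2 and 3 were among the 6 libraries set apart by choroid plexus level, and the part of that split was not tested. What else such libraries share is not stated in the labels. In no other pair of groups did every number exceed r = 0.1, though number 1 of PFC VEH and HC VEH had r = 0.438. No replicate libraries were identical. The fit was also run on simulated data, with the outcome not given here, so nothing is drawn from it. Versions were R 4.3.3, DESeq2 1.42.0 and limma 3.58.1, with edgeR 4.0.16 for the main test and matplotlib 3.10.9 under Python 3.11.15 for figures. Members without a RefSeq promoter entry were Fdps, Fdft1, Sqle, Scd1, Scd2, Fads1 and Stard4.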

Additional observations from a re-analysis of the deposited data

How the results depend on the processing

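The number of called members depended on the processing in most comparisons that had any. In PFC CUMS against NAIVE it was 3 (119 genes called in all; numbers in parentheses are the same count in each setting), and it became 5 with no filter on low counts (402), 1 with the marker covariate (41), 5 with DESeq2 (348), 0 with only the groups compared (26), and 0 to 4 with a library left out (13 to 540). In HC EE against VEH it was 0 (0), and 3 with no filter (278), 1 with genes of 10 counts in 2 or more libraries (10), 5 with DESeq2 (441), 3 with only the groups compared (223), 4 without the 6 libraries set apart by choroid plexus level (1012), and 0 to 2 with a library left out (0 to 41). In HC against PFC in the minocycline experiment it was 2 (744), and 5 with no filter (1191), 0 with the covariate (172), 3 with DESeq2 (1173) and 2 to 6 with a library left out (292 to 983). PFC CUMS_M against NAIVE went from 0 (13) to 3 with no filter (268), 1 with the covariate (61), 1 with DESeq2 (143) and 0 to 4 with a library left out (0 to 610). Other counts of 0 became 1 in HC CUMS against NAIVE with no filter (17), in PFC CUMS_M against CUMS with only the groups compared (68), in the regional difference of stress with DESeq2 (27) and with a library left out (0 to 1 members, 0 to 140 genes in all), and without the 6 libraries in PFC EE against VEH (334), in HC against PFC of the enrichment experiment (2051) and in the regional difference of enrichment (472). The cause was not tested.

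Direction turned for Sc5d (-0.10) and Scd2 (0.24 to -0.99) in PFC CUMS against NAIVE and for Cyp51 (0.13), Scd1 (0.36), Scd2 (0.53) and Sc5d (0.10) in PFC CUMS_M against CUMS, all with the covariate, and for Acsl3 in PFC EE against VEH without the 6 libraries (-0.01). That removal was chosen after seeing the data and takes its spread from the 3 HC EE libraries alone. With the replicate block 2 members were called in PFC CUMS against NAIVE, where Scd1 had 1.63 (adjusted p = 0.0582), and 2 in HC against PFC of the minocycline experiment. It changed no other count of called members. Members such as Idi1 and Elovl6, near 1 CPM, are limited by depth.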
